A study of Mus musculus with 12 samples.

Results

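Cytosolic ribosomal protein genes encode the proteins of the small and the large subunit of the ribosome that translates nuclear-encoded mRNA. They were taken here by gene name, as names made of Rps or Rpl and a number with at most 1 of the letters a, l and x, together with Rpsa, the 3 P stalk genes Rplp0, Rplp1 and Rplp2, and the paralogues Rpl7l1, Rpl22l1 and Rps27l. Names with -ps, which marks annotated pseudogenes, were left out. Of 25116 genes in the table, 84 had such a name and 83 had a mean raw count of at least 10 over the 12 tumours. These 83 members comprised 32 genes of the small subunit, 48 of the large subunit and 3 of the P stalk. Rpl6l, Rpl32l and Rps4l among them had no coding sequence in the annotation used and were placed in a subunit by name only. Rpl39l, the testis paralogue of Rpl39, was just outside the count minimum with a mean count of 2.75, and Rpl3l (15.5), Rpl32l (25.8) and Rps4l (30.7) were just inside it.

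RNA was measured in bulk by RNA-seq in 12 allografts of E0771, a triple-negative mouse breast cancer cell line, grown in the mammary fat pad of syngeneic C57BL/6J mice. All hosts carried Tie2CreER, a tamoxifen-activated Cre recombinase under an endothelial promoter, and ERKi, a knock-in gene for endorepellin, the C-terminal fragment of perlecan. Tamoxifen was given to the hosts of 7 tumours (induced) and a control injection to those of 5 (control), before the cells, and all tumours were taken at day 22. The question is what endothelial endorepellin does to the transcriptome of the tumour. The switch acts in host endothelium, whereas the RNA came from whole tumours, and endothelial markers summed to 145.6 to 210.4 CPM (counts scaled to library size) in control tumours and to 146.9 to 206.3 CPM in induced tumours. The sources used here do not give the ages and numbers of the mice, or whether each tumour came from its own mouse, so p-values measure the spread between these tumours.

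Ribosomal proteins are made in near-equal numbers for assembly with ribosomal RNA in the nucleolus, and their mRNAs are among the most abundant of a growing cell. Most of these mRNAs begin with a cytidine and a run of pyrimidines, the 5' terminal oligopyrimidine (TOP) tract, through which mTORC1 and Larp1 set their translation and stability together. Mutations in single members, such as RPS19 and RPL11 in humans, cause Diamond-Blackfan anaemia, and free Rpl5 and Rpl11 stabilise p53 by binding Mdm2.

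Total counts were 18993192 to 28372821 per tumour. Of the epithelial markers looked for, Krt8 reached at most 2.29 CPM and Epcam at most 1.36 CPM, both near 0, while the mesenchymal gene Vim stood at 3890 to 7826 CPM in every tumour. Tumours control 1, control 2, induced 3 and induced 4 stood apart from the other 8 in the members, 2 from each group, as described next. Fibroblast markers (10 of 10 in the table, none at 0 throughout) were also highest in these 4 tumours, summing to 3629 CPM in control 1, 2236 in induced 4, 1349 in control 2 and 1292 in induced 3, against 639.1 to 1118 CPM elsewhere. Macrophage markers (10 of 10) summed to 2052 CPM in control 1, 1270 in induced 4 and 514.8 in control 2, but to 311.7 CPM in induced 3, within the 188.8 to 474.7 CPM of the other tumours. The 10 genes listed for epithelial and E0771 cells, of which Vim made up most of the sum, reached 4584 CPM in control 1, 5107 in control 2, 6880 in induced 3 and 4772 in induced 4, within the 4117 to 8143 CPM of the other tumours. The part of these markers in the member values was not tested, and in bulk RNA fewer tumour cells cannot be told apart from less ribosomal protein mRNA per cell.

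The members together took 7.23% of all assigned counts in control 1, 8.82% in control 2, 11.83% in control 3, 15.15% in control 4 and 11.84% in control 5. In the induced tumours the share was 8.26% at the lowest (induced 4), 11.56% at the median and 13.61% at the highest (induced 7). Both the lowest and the highest tumour were controls, and the induced values all lay between them. The mean share was 10.97 ± 3.07% in control (SD, n = 5) and 11.09 ± 1.91% in induced tumours (SD, n = 7), a difference of 0.11 percentage points against a 2.1-fold range over the tumours. The 95% Wilson intervals were at most 0.03 percentage points wide, and they cover counting error only. Large-subunit and P stalk genes together had 1.46 ± 0.05 times the counts of small-subunit genes in control and 1.42 ± 0.04 times in induced tumours, so the balance of the subunits varied little while their sum varied.

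**Figure D1:**
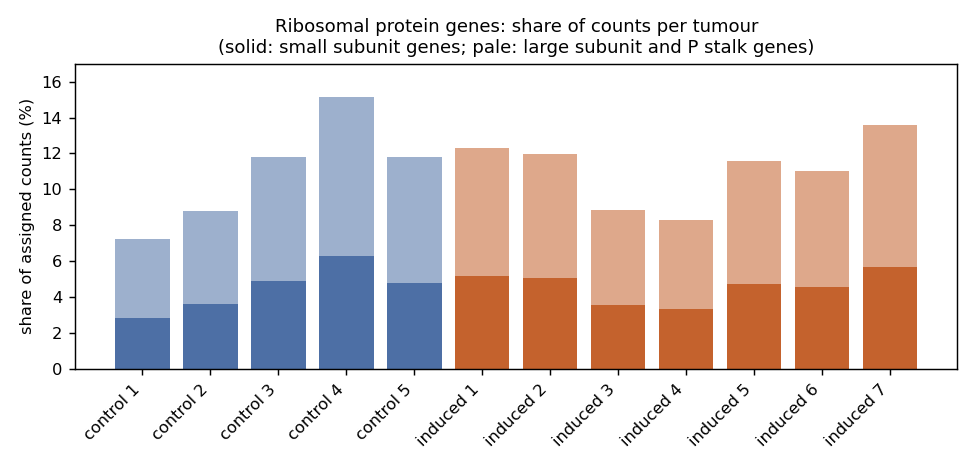
Share of assigned counts (%, vertical axis) that fell in the 83 ribosomal protein genes in each of the 12 tumours, solid for the small subunit and pale for the large subunit with the P stalk. Control tumours (blue) run from 7.23% to 15.15% and enclose all induced tumours (orange), which run from 8.26% to 13.61%.

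The members moved from tumour to tumour as a block. With each gene centred on its own mean over the tumours, the median member stood at -0.69 log2 CPM in control 1, -0.51 in induced 4, -0.37 in control 2 and -0.30 in induced 3. It stood between 0.01 and 0.20 in 6 tumours, at 0.46 in induced 7 and at 0.56 in control 4. The same 4 tumours were the lowest 4 for 64 of 83 members, against 15.1% of all 15199 genes tested and 20.1% of 2160 other genes at 100 CPM or more. They were set apart by the members' own medians, so a larger share among the members follows in part from that choice. Control 1 was the lowest tumour for 72 members, control 4 the highest for 63 and induced 7 the highest for 17. These 3 extremes lie in both groups, so the main axis of variation in these genes ran across the comparison of induced with control.

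**Figure D2:**
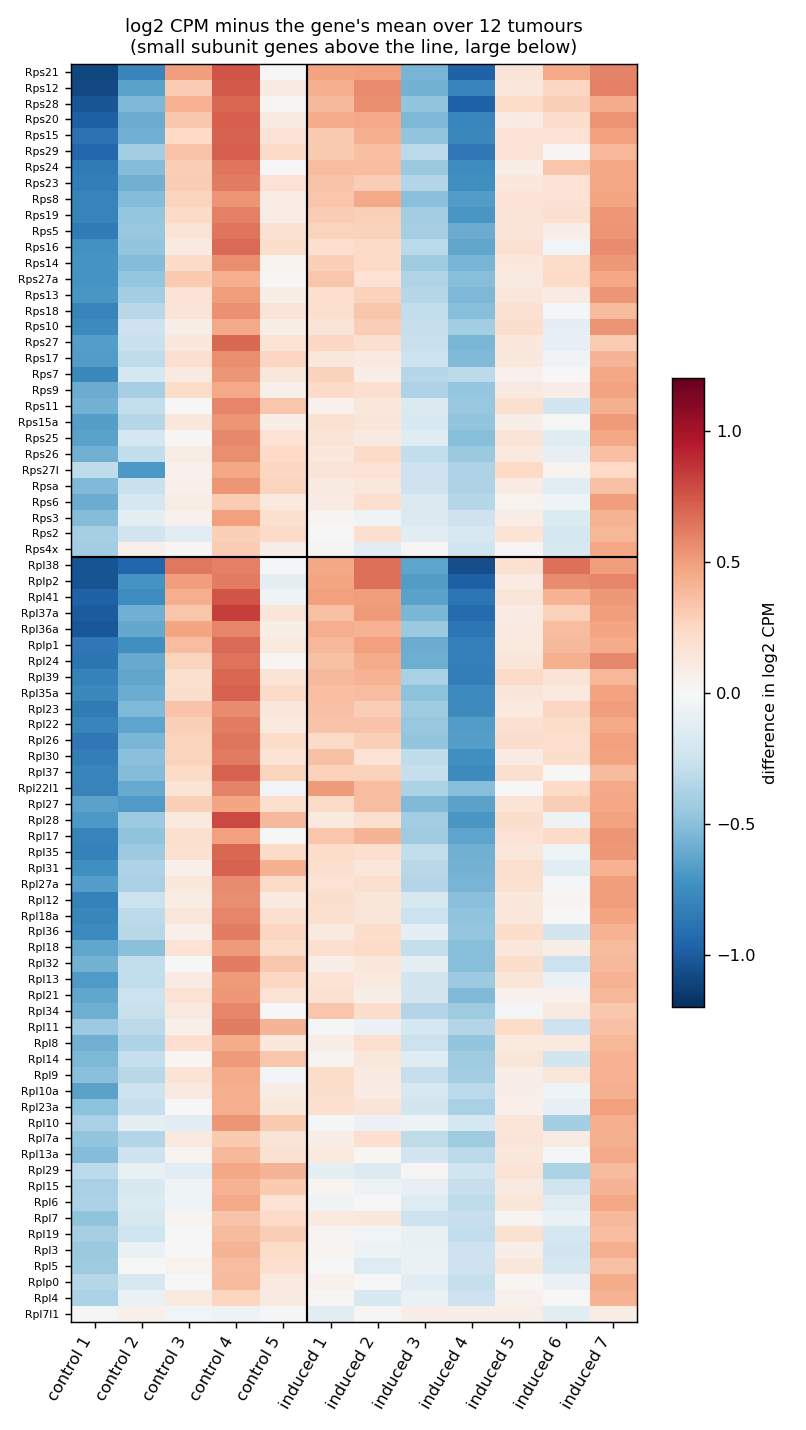
Centred log2 CPM (colour) of the ribosomal protein genes with a mean of at least 10 CPM (rows) in the 12 tumours (columns). Columns control 1, control 2, induced 3 and induced 4 are low for nearly all rows, and control 4 and induced 7 are high.

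No member passed the test between induced and control tumours. Of the 83 members, 82 passed the filter on low counts and Rpl3l did not. By edgeR's quasi-likelihood test, 0 of 82 had a Benjamini-Hochberg adjusted p under 0.05 (background 0.0% of all 15199 genes tested), with 0.99989 for every member. Before adjustment 0 members had a p under 0.05 (background 2.13%), and DESeq2 likewise gave 0 (background 2.44%). Log2 fold changes of the members ran from -0.29 (Rps4l) to 0.23 (Rplp2), with a median of 0.04 beside -0.00 over all genes tested. Their median standard error was 0.22, each fold change was smaller than its own standard error, and the induced and control values of all 82 overlapped (groups did not overlap for 0.0592% of all genes).

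More members were higher than lower in induced tumours, 55 against 27, which is 67.1% higher where 49.8% of all genes tested were higher and 50.2% lower. That count turned on single tumours. Without control 1 it was 5 of 83, without control 2 it was 14 of 83, without induced 7 it was 27 of 82 and without control 4 it was 80 of 82. Without the 4 tumours that stood apart, 8 of 82 were higher, 9.8% beside 48.9% of all genes, and the median was -0.09. Small-subunit genes were higher in 22 of 32 cases (median 0.06), large-subunit genes in 30 of 47 (median 0.02) and P stalk genes in 3 of 3 (median 0.10). In the authors' deposited comparison, by a test that is not named, the smallest unadjusted p of the 83 members was 0.446 (Rpl22l1, adjusted p = 0.994).

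**Figure D3:**
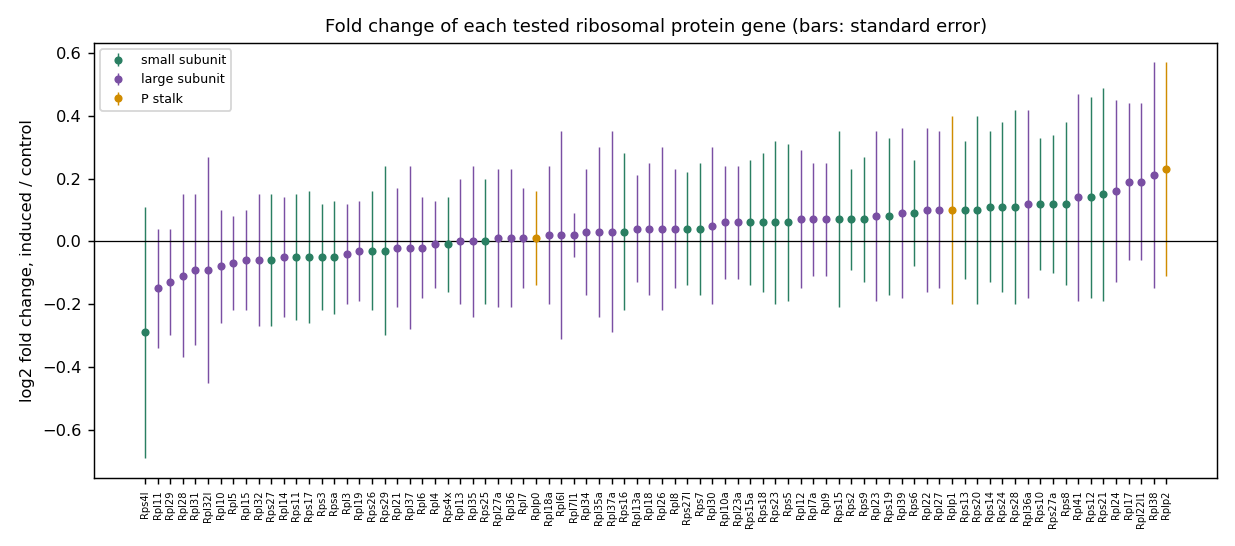
Log2 fold change, induced over control (vertical axis), of the 82 tested ribosomal protein genes in order of size, with bars for the standard error and colours for the subunit. All values lie between -0.29 and 0.23, and every bar crosses 0.

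The P stalk is the flexible arm of the large subunit that recruits the GTPases of translation. Rplp0, its anchor on ribosomal RNA, was at 2255, 2516, 2870, 3727 and 3117 CPM in control 1 to control 5, and at 2363 to 3900 CPM in induced tumours with a median of 2882. Its highest value was in induced 7 and its lowest in control 1, and the groups overlapped, with means of 2897 ± 569 and 2909 ± 484 CPM (log2 fold change 0.01, SE 0.15). Rplp2, which binds Rplp0 as a dimer with Rplp1, was at 488.0, 612.6, 1411, 1529 and 924.3 CPM in control, and at 507.1 to 1580 CPM in induced tumours with a median of 1386. Its values fell into a low set up to 628.6 CPM, the 4 tumours named above, and a high set from 924.3 CPM upward, each holding both groups. It had the largest fold change on the higher side, 0.23, with an SE of 0.34 (unadjusted p = 0.516, adjusted p = 0.99989, edgeR). Rplp1 followed Rplp2, from 1110 CPM in control 1 to 3211 CPM in control 4, and its log2 fold change was 0.10 (SE 0.30). Within the stalk the range over tumours was thus 1.73-fold for Rplp0, 2.89-fold for Rplp1 and 3.24-fold for Rplp2.

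The promoters of Rplp2 and of 3 other members are shown because they carry the sequence features by which these genes are known. Each window is from RefSeq on GRCm38.p6 and runs from 60 bases before the annotated start to 20 after it, 5' to 3' on the gene's strand. Capitals mark CTTTC or CTTTT, the core of a pyrimidine tract at the start, and CCGGAAG, the core bound by ETS factors such as GABP.
Rplp2, chr7:141447591-141447670, plus strand: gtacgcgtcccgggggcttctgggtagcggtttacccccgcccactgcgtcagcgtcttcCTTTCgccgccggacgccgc
Rpl38, chr11:114668520-114668599, plus strand: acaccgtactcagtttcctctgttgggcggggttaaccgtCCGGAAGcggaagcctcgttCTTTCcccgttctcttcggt
Rps6, chr4:86857348-86857427, minus strand: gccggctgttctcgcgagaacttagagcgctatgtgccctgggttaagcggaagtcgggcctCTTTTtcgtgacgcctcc
Rps10, chr17:27635225-27635304, minus strand: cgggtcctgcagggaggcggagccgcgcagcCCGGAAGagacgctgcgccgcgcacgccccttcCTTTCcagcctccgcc
In Rplp2 and Rpl38 the capital C of the tract is the first transcribed base as annotated.

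Promoter windows of 250 bases before to 50 after the start were matched by symbol for 61 of 83 members and for 27025 genes in all. CTTTC or CTTTT on the sense strand, from 10 bases before to 20 after the start, was in 27.9% of the 61 members and 7.8% of all genes. CCGGAAG on either strand was in 39.3% of members and 9.9% of all genes, and GCCATNTT, the YY1 core, in 21.3% and 7.0%. GGGCGG, the GC box bound by Sp1, was in 60.7% and 38.2%, and it can overlap the other motifs. The shares for CACGTG, the E box bound by Myc and Max, were closer, at 9.8% and 8.1%, and TATAAA from 50 to 15 bases before the start was in 1 of the 61 members (1.6%) and in 2.8% of all genes. These are matches of letters in a window around annotated starts, which may lie upstream or downstream of the start used in these tumours. In Rpl4 and Rpl5, CTTTC lies more than 10 bases before the annotated start and was not counted.

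Rpl5 and Rpl11 enter the large subunit together with 5S ribosomal RNA. Rpl5 was at 1152, 1544, 1597, 2002 and 1778 CPM in control tumours, and at 1305 to 1978 CPM in induced tumours with a median of 1465. Rpl11 was at 756.7, 823.3, 1068, 1569 and 1359 CPM in control, and at 804.9 to 1309 CPM in induced tumours with a median of 979.1. Both were lowest in control 1 and highest in control 4, and their induced values lay within the control range. Log2 fold changes were -0.07 for Rpl5 (SE 0.15) and -0.15 for Rpl11 (SE 0.19, unadjusted p = 0.456), and both left the negative side without control 4 (0.01 and 0). Other genes overlap 26.7% of the exonic bases of Rpl5, the largest part by Fam69a on the opposite strand. Where Rpl5 and Fam69a overlap, their reads cannot be told apart unless strand was counted, and the sources used here do not say.

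In the small subunit, the members chosen by role were all lowest in control 1, and highest in control 4 or induced 7. Rps6, the substrate of S6 kinase downstream of mTORC1, was at 745.2, 977.1, 1200, 1387 and 1220 CPM in control tumours, and at 889 to 1595 CPM in induced tumours with a median of 1160. Control 1 was lowest and induced 7 highest, and the means were 1106 ± 249 and 1176 ± 228 CPM (log2 fold change 0.09, SE 0.17). Rpsa, which also serves as a laminin receptor, had means of 2213 ± 627 and 2140 ± 369 CPM, and Rps3, which lines the mRNA entry channel and has a role in DNA repair, 2281 ± 578 and 2197 ± 364 CPM. Rps19, needed to mature the small-subunit RNA, had means of 992 ± 367 and 1050 ± 283 CPM, and Rps26, which sits at the mRNA exit channel, 1159 ± 350 and 1133 ± 219 CPM. Rps27a, made as a fusion with ubiquitin, was at 1626 ± 528 and 1767 ± 408 CPM. In each of these genes the difference between the means was under the SD of either group.

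Rps10, which contacts the mRNA entry site, and Rps4l were the small-subunit genes that the rule for small p-values named. Rps10 was at 660.3, 942.4, 1175, 1538 and 1179 CPM in control, and at 844.7 to 1631 CPM in induced tumours with a median of 1245 (log2 fold change 0.12, SE 0.21, unadjusted p = 0.571). Its fold change was -0.03 without control 1. Rps4l, a relative of Rps4x without an annotated coding sequence, had 22 to 63 counts per control and 12 to 63 per induced tumour. Its 63 counts in control 1 and in induced 4 were its most, in the tumours with the lowest member shares, and its log2 fold change was -0.29 (SE 0.40, unadjusted p = 0.481). Rps21, which had a wide spread, was at 324.0, 400.0, 978.8, 1171 and 688.7 CPM in control, and at 354.2 to 1045 CPM in induced tumours with a median of 946.9. Its 3.61-fold range, from control 1 to control 4, compares with 1.84-fold for Rps4x.

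In the large subunit, Rpl3, which lies near the peptidyl transferase centre, had means of 1829 ± 397 CPM (control) and 1775 ± 306 CPM (induced). Rpl10, whose late joining licenses the subunit for translation, had means of 2333 ± 613 and 2200 ± 425 CPM (log2 fold change -0.08, SE 0.18), and it was 0.05 without control 4. Rpl13a, also known for silencing inflammatory mRNAs, was at 1054 ± 254 and 1083 ± 197 CPM, and Rpl39, at the exit of the peptide tunnel, at 351 ± 146 and 373 ± 105 CPM. Rpl17, near the same exit, had means of 1778 ± 611 and 2024 ± 547 CPM (0.19, SE 0.25, unadjusted p = 0.462). Rpl29, a surface protein of the subunit, was at 727.8, 853.5, 823.5, 1246 and 1205 CPM in control, and at 697.5 to 1177 CPM in induced tumours with a median of 841.7. It was among the lower members, at -0.13 (SE 0.17, unadjusted p = 0.454), and unlike most of them it was lowest in induced 6.

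Rpl38, which is required for the translation of some Hox mRNAs, had the widest spread of the 82 tested members, with an SD of 0.72 on the log2 CPM scale. It was at 266.0, 282.2, 843.8, 829.2 and 538.2 CPM in control tumours, and at 261.0 to 864.6 CPM in induced tumours with a median of 751.0. The 4 tumours named above were at 261.0 to 350.9 CPM and the other 8 at 538.2 CPM or more, with both groups in each set. Its log2 fold change was 0.21 (SE 0.36, unadjusted p = 0.566, adjusted p = 0.99989, edgeR). Rpl4, by contrast, was at 2027, 2501, 2865, 3146 and 2848 CPM in control, and at 2225 to 3529 CPM in induced tumours with a median of 2624. Its SD was 0.22, and the groups were level at 2678 ± 430 and 2656 ± 426 CPM.

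Rpl41 is shown in full because it encodes the shortest protein of the ribosome, 25 residues, and is the extreme of the length series described next. Its coding sequence is from GENCODE mouse release 21 on GRCm38, with the start and stop codons in capitals.
Rpl41, chromosome 10, 128548114 to 128549305, minus strand: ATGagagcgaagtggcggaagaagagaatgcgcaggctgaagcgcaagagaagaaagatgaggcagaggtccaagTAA
Rpl41 was at 741.6, 860.0, 1957, 2448 and 1404 CPM in control, and at 795.1 to 2072 CPM in induced tumours with a median of 1933. It showed the same low 4 tumours and a 3.3-fold range, with a log2 fold change of 0.14 (SE 0.33). Near-identical copies of its coding sequence, at 95% identity or more over at least 90% of its length, held counts equal to 16.0% of its own, the most of any member.

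The spread of a member over the tumours went with the length of its coding sequence. At a mean of 100 CPM or more there were 78 members, with SDs of log2 CPM from 0.08 to 0.72 and a median of 0.39, beside 0.21 over 2238 genes tested at that level. The 10 members with coding sequences of up to 300 bases had a median SD of 0.56, the 27 of 300 to 450 bases 0.47, the 19 of 450 to 600 bases 0.38, and the 22 of 600 to 1300 bases 0.28. Rpl38 (213 bases) and Rpl41 (78) were among the shortest and Rpl4 (1260), Rplp0 (954) and Rpl5 (894) among the longest. Across the 78 genes, which share the same 12 libraries, Spearman's rho between SD and coding length was -0.77 as a description. Over 2142 other genes at that level, of all coding lengths, the same rho was -0.0. The other genes at that level had median SDs of 0.39, 0.30, 0.22 and 0.19 over the same 4 classes, and 0.25 above 3000 bases. In each of the 4 classes the value was lower than in the members, and the values fell in the same order. Members were classed by their principal annotated coding sequence and other genes by their longest, so length was not measured alike in both sets.

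The same order held tumour by tumour at the extremes. In control 1 the class medians of centred log2 CPM were -0.95, -0.80, -0.69 and -0.48 from the shortest class to the longest, and in control 4 they were 0.70, 0.61, 0.51 and 0.41. In induced 4 they were -0.86, -0.67, -0.49 and -0.29, whereas in induced 7 all classes stood at 0.42 to 0.48. Induced 7 was the highest tumour for the longest class. The classes also lay close together in control 5 (0.13 to 0.18) and induced 5 (0.11 to 0.17), nearer to 0.

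Other genes of short coding length moved in the same tumours, by less in control 1 and control 4. In control 1 the other genes of up to 300 bases (44 genes) had a median of -0.39 and those of 600 to 1300 bases (664 genes) of -0.10, and genes over 3000 bases (362 genes) were at 0.15. In control 4 these classes were at 0.37, 0.02 and -0.25. The gap from control 1 to control 4 was 1.65 log2 units in the shortest members against 0.76 in other genes of that length, and 0.89 against 0.12 in the class of 600 to 1300 bases. The gap was wider in the members within each of the 4 length classes they fill, and length went with the shift in both sets. Control 1 and control 4 are the members' own extremes, so a wider gap in the members is partly built in by that choice. Among the other genes, control 2 was lowest in the class up to 300 bases and induced 7 highest in that of 600 to 1300 bases. No measure of RNA integrity was used here, and the part of RNA quality or library preparation in this pattern was not tested.

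**Figure D4:**
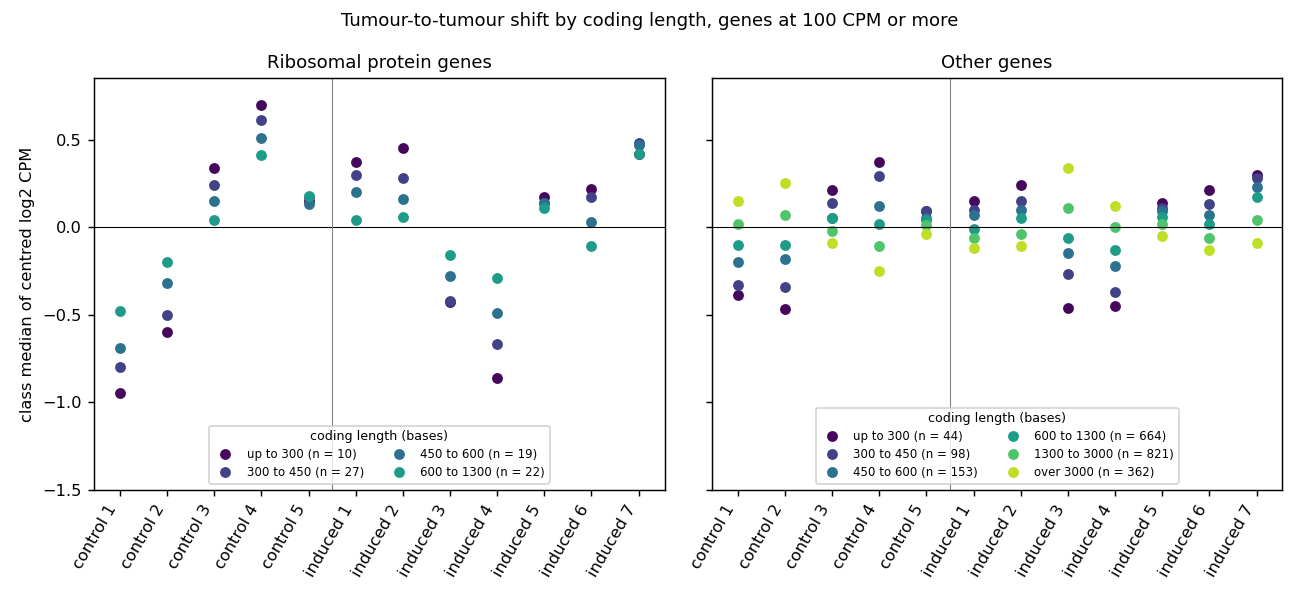
Median centred log2 CPM (vertical axis) per tumour of genes at 100 CPM or more, by class of coding length (colour), for ribosomal protein genes (left) and other genes (right). In control 1 the shortest members are at -0.95 and the longest at -0.48, and the other genes run from -0.39 for the shortest to 0.15 for the longest.

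Scaled to the summed counts of the members, which removes a common factor per tumour, the fold changes ran from -0.36 to 0.20 with a median SE of 0.12. Movement that differed between members, as between the length classes, is not removed by this scaling. By edgeR's test on that scale, 0 of 82 had an adjusted p under 0.05 (background 0.0%), and 0 had an unadjusted p under 0.05 (background 1.06%). The smallest unadjusted p was 0.21, for Rpl11 at -0.17.

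Levels were compared between members as mean CPM per kilobase of annotated exon over the 12 tumours. Rplp1 was highest at 4309, followed by Rps15 of the small-subunit head at 3391, Rpl36 at 2074, Rpl32 at 2023 and Rpl8 at 1762. The lowest were Rpl22l1 at 31.3, Rpl6l at 4.88, Rpl32l at 2.89, Rps4l at 1.40 and Rpl3l at 0.405, all of them paralogues or copies. Per kilobase of the longest transcript, Rplp1 (4309) and Rps15 (3735) still led, and Rps7 (3079), Rps2 (2719) and Rpl10 (2425) came next, so the order below the first places depends on the length used.

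**Figure D5:**
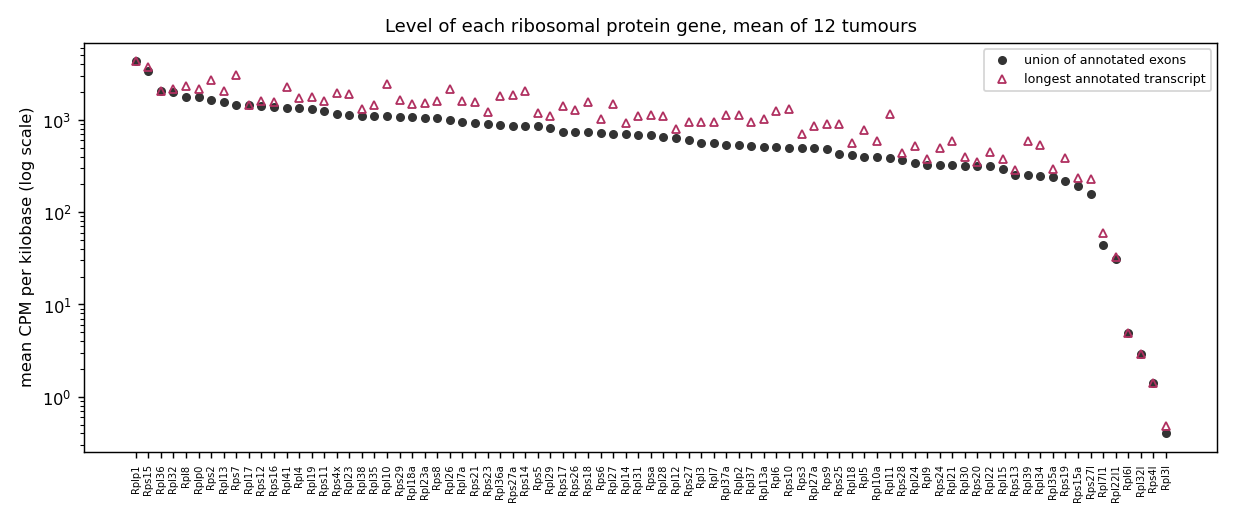
Mean CPM per kilobase (log scale, vertical axis) of the 83 ribosomal protein genes over the 12 tumours, by the union of annotated exons (points) and by the longest annotated transcript (triangles). Most members lie between 159.1 (Rps27l) and 4309 (Rplp1), and the 6 lowest are paralogues or copies.

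Paralogues can replace their parent protein in some ribosomes. Rps27l, a p53 target, and Rps27 are shown because their coding sequences have the same length of 255 bases and are 76.1% identical, so that reads can be assigned to one or the other. Bases 1 to 90 of each are given from GENCODE mouse release 21, with the 24 differing bases in capitals.
Rps27, chromosome 3, minus strand: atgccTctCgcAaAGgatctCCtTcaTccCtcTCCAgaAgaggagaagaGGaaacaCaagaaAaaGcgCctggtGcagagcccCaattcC
Rps27l, chromosome 9, plus strand: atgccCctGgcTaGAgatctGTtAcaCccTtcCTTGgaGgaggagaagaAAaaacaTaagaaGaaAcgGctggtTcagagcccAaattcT
Rps27l CPM was 26.4%, 15.4%, 19.5%, 17.6% and 22.1% of Rps27 CPM in control 1 to control 5, and 19.4% to 23.3% in induced tumours. The induced values lay within the control range, and the log2 ratio differed by 0.09 (exact permutation test over 792 splits, two-sided, p = 0.46, adjusted p = 0.613 over 4 pairs).

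Rpl22l1, which can take the place of Rpl22 and regulates splicing, had the smallest unadjusted p of any member, 0.446. It was at 33.94, 38.92, 66.41, 89.43 and 58.11 CPM in control, and at 41.65 to 84.39 CPM in induced tumours with a median of 70.05 (log2 fold change 0.19, SE 0.25). Its CPM was 6.10% to 6.90% of that of Rpl22 in control and 5.96% to 7.63% in induced tumours, a narrow ratio while both genes ranged over 2.6-fold (p = 0.154, adjusted p = 0.583, exact permutation test). Rpl36al, whose name fell outside the rule, was at 20.3% to 32.0% of Rpl36a in control and 17% to 30.9% in induced tumours (p = 0.292, adjusted p = 0.583, exact permutation test).

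Rpl7l1, a Rpl7-like protein, did not share the movement of the other members. It was at 154.4, 162.1, 152.0, 149.0 and 154.1 CPM in control, and at 141.2 to 165.7 CPM in induced tumours with a median of 164.0. Its SD of 0.08 was the smallest of any member, and its groups overlapped (log2 fold change 0.02, SE 0.07). Rpl7 followed the other members, and Rpl7l1 was 14.6% of Rpl7 in control 1 and 7.95% in control 4 (group difference of the log2 ratio 0.00, p = 0.999, adjusted p = 0.999, exact permutation test).

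Rpl3l, the paralogue of Rpl3 of striated muscle, had 3, 3, 1, 66 and 1 counts in control 1 to control 5, and 0 to 71 counts in induced tumours. Control 4 (66 counts) and induced 4 (71 counts) held most of them. Skeletal muscle markers (7 of 7 in the table) summed to 476.4 CPM in control 4 and 454.6 CPM in induced 4, and to 6.52 to 184.1 CPM elsewhere, in the tumour with the highest member share and in the one with the next to lowest. The part of muscle in either value was not tested.

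Other lists of the translation apparatus were read from the same fit, and 0 genes passed the threshold in any of them. Their counts of higher genes stand beside 49.8% higher among all genes tested. How far these counts turn on single tumours, as that of the members did, was not tested. Of 6 ribosomal proteins outside the name rule, 2 had higher and 4 lower means in the induced group, and in their tumour medians they ranged over 1.12 log2 units, close to the 1.25 of the members. Rps3a1, a small-subunit protein, was at 1993 ± 575 and 2268 ± 566 CPM. Elongation factors and other TOP mRNAs (13 of 14 higher, median 0.08) ranged over 0.85, with control 1 lowest at -0.43 and induced 7 highest at 0.42. Mitochondrial ribosomal proteins (43 of 78 higher, median 0.01) ranged over 0.62, with control 2 lowest and control 4 highest. Among them Mrpl46 was at 18.2 ± 1.48 and 15.9 ± 1.14 CPM (log2 fold change -0.20, SE 0.09, unadjusted p = 0.051).

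Initiation factors (19 of 31 higher, median 0.04) ranged over 0.31 and regulators such as Mtor, Larp1, Myc and Gabpa (12 of 21 higher, median 0.05) over 0.16. Ribosome biogenesis genes (15 of 45 higher, median -0.03) ranged over 0.29, and in control 1, control 2, induced 3 and induced 4, where the members were low, their medians were 0.04, 0.14, 0.14 and 0.12. The low tumours for ribosomal protein mRNA were thus not low for the mRNAs of the factors that assemble ribosomes. Other genes at 100 CPM or more with 1300 to 3000 coding bases had medians of 0.02, 0.07, 0.11 and 0.0 in these tumours. The part of coding length in the contrast with the members was not tested.

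The sequences of ribosomal protein genes recur in the genome as processed copies. Of 80 members with a coding sequence, 75 had at least 1 near-identical copy among transcripts of other genes and 74 had one with a row in the table. Whether a match was a processed copy or a gene overlapping the member at its own locus was not checked. Counts on these 405 copies were 0.81% to 1.15% of the counts on the members in any tumour, and 62 members had copies with under 1% of their own counts. Members with larger shares were Rpl41 (16.0%), Rpl38 (8.27%), Rpl11 (6.15%) and Rpl21 (5.19%). The counter's rule for reads with several matches is not given. If such reads were dropped, they count for neither member nor copy, so these shares do not bound the error of any member. Exonic bases shared with any other gene were 66.2% of Rpl35 and 62.3% of Rpl23a, with the largest overlaps by Wdr38 and Tlcd1 on the opposite strand. They were 47.0% of Rpl24, 35.4% of Rpl13a and 28.7% of Rps10. The largest overlaps there were by Gm28037, Gm45713 and RPS10-NUDT3 on the same strand, where counting by strand does not separate reads.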

How the data were processed

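Bulk RNA-seq of 12 tumours (5 control, 7 induced) was used. The deposited table gave, per the file headers, raw counts by Ensembl gene, rlog values on a log2 scale, and the authors' own comparison with log2 fold changes, a signed fold score, p-values and adjusted p-values, by a test that the sources used here do not name. Per the labels' protocols, libraries were made from total RNA with a SMARTER mRNA-Seq kit, and per the submitters' processing notes the build was GRCm38 (mm10). The sources used here do not name the aligner, the counter or the use of strand. The growth and treatment protocols in the labels concern adipogenesis in another line, so groups came from titles and the treatment label.

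Counts were tested with edgeR 4.0.16 in R 4.3.3 (filterByExpr with a minimum count of 10, 15199 genes kept and 9917 removed, TMM factors, robust quasi-likelihood F test, two-sided, Benjamini-Hochberg adjustment over all genes, threshold 0.05). CPM uses TMM factors, and log2 CPM has a prior count of 2. Biological variation between tumours (common coefficient) was 32.1%. Lengths, coding sequences and positions came from GENCODE mouse release 21 and promoters from RefSeq. Missing symbols were filled for 189 rows. No pair of libraries of one group agreed within sampling noise (chi-square per gene 13 or more). The code was checked on simulated counts. DESeq2 1.42.0 and other size factors, filters and left-out tumours were tried. The members and lists were chosen with earlier results of these data known. The rule named members by role, paralogue pairing, smallest p, level and spread, and other lists' genes by p. The coding-length classes and the count of the lowest 4 tumours were chosen after the data were seen.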

Additional observations from a re-analysis of the deposited data

Results flagged for a closer look

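Dixon's criterion was applied to 90 sets of values within a group. Most were CPM of a named member, and the others were the members' share of counts or a paralogue ratio. In 6 sets, all of member CPM, an extreme tumour stood far from the rest of its group. Chance meets the criterion in about 1 in 20 sets. Rpl3l was at 2.996 CPM in control 4, where the next control was at 0.1051 CPM, and at 2.621 CPM in induced 4, where the next induced tumour was at 1.082 CPM. The other 4 were all induced 7, in genes with long coding sequences. Rplp0 was at 3900 CPM there (next 2971), Rpl4 at 3529 (next 2731), Rps4x at 2592 (next 1913) and Rpl3 at 2395 (next 1858). The genes share that library, so these are not 4 separate observations.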

How the results depend on the processing

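Under other size factors, filters and dispersion settings, DESeq2, the replicate block, scaling to the members and every removal of tumours, 0 genes and 0 members passed the threshold. The number of members higher in induced tumours (55 of 82) was 32 with the replicate block, 8 without the 4 tumours that stood apart, and 5 (without control 1) to 80 (without control 4) when single tumours were left out. The median fold change ran from -0.103 to 0.19 over the same removals and was -0.018 with the block. The difference in share ran from -0.82 to 1.16 percentage points, and was -0.84 without the 4 tumours. Replicate numbers did not pair the tumours: correlations of same-numbered deviations were -0.31, -0.51, -0.51, -0.53 and 0.21, and none was the best for its number. Of 336 fold changes of 16 named genes under alternatives, 4 changed sign and 0 passed the threshold: over single removals Rps10 ran from -0.03 (without control 1) to 0.27, and, each highest without control 4, Rpl11 from -0.27 to 0, Rpl5 from -0.18 to 0.01 and Rpl10 from -0.19 to 0.05. The log2 ratio of Rpl7l1 to Rpl7 ran from -0.1 to 0.12 over single removals, with -0.02, -0.06, -0.05 and -0.01 among the values below 0. Apart from these removals the cause was not tested. Depth was not the limit for most members, but Rpl3l, Rps4l and Rpl32l rest on at most 71 counts per tumour.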
